A study of Homo sapiens with 6 samples.

Results

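The genes described here are 7 that had been proposed as possible off-targets of a hairpin against SETD7: CASC4 (ENSG00000166734.13), FAM96B (ENSG00000166595.7), COMMD2 (ENSG00000114744.4), RPS6KB1 (ENSG00000108443.9), CHD6 (ENSG00000124177.10), POLR2H (ENSG00000163882.5) and TMEM64 (ENSG00000180694.9). They were taken by symbol, 7 of the 18544 genes in the count table, and were put on the list because their counts were steeply and evenly lower in the Set7KD libraries. Their difference between the groups is therefore a description and carries no test, and silencing by the hairpin was not tested. The libraries are poly-A RNA-seq of HMEC-1, a line of immortalised endothelial cells from human skin microvessels, grown in MCDB131 medium with 5.5 mM glucose. The Set7KD group (n = 3) received a lentivirus with an shRNA against SETD7, and the NTC group (n = 3) a lentivirus with a non-targeting shRNA, so the cells of both groups carry a hairpin. SETD7, also called Set7, monomethylates histone H3 at lysine 4 and methylates other proteins too. The design text speaks of biological triplicates. Hairpin sequences, the number of hairpins and whether each replicate was a separate transduction were not given in the sources used here, and p-values cover only the spread between the libraries, which may be technical in part.

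A short hairpin RNA is cut in the cell into a guide strand that Argonaute carries to its target. Extensive pairing lets Argonaute cleave the target, while pairing of the seed alone, a stretch near the 5′ end of the guide, can lower other transcripts, mostly through sites in their 3′ UTRs. An effect of that kind is called an off-target effect. It acts on genes that share a short word with the target and need share no function with it.

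The sequences come first because a pair of overlapping 7-base words, ATGAATC and TGAATCA, was already known from an earlier pass over these counts as the words most associated with lower fold changes. In the longest protein-coding transcript of each gene in GENCODE 29, 7 of 7 listed genes held at least 1 of these words in the 3′ UTR, where 17.1% of 12934 tested genes with such a transcript did. Words were read on the transcript strand. The words overlap in the 8 bases ATGAATCA, which stood in the 3′ UTR of CASC4, RPS6KB1, CHD6, POLR2H and TMEM64, against 3.73% of genes. SETD7 itself held the same 8 bases once in its coding sequence and the single words at 2 places in its 3′ UTR. The windows of 30 bases below set the SETD7 coding site beside a 3′ UTR site of each gene (TMEM64 is named only). Capitals in SETD7 mark the 8 bases, and capitals in the other genes mark the unbroken run that is identical to SETD7 at that place.
SETD7: ttcttccagatccttATGAATCAgaaaggg
CHD6: tggagtcccagttTTATGAATCAGAgatat
POLR2H: gtgggagagctgaaaATGAATCAGAAgctt
CASC4: cattagggtagggagATGAATCAaaaaata
RPS6KB1: aataataaaatgcaaATGAATCAttgttaa
COMMD2: aaggttttaattcattTGAATCActtatga
FAM96B: gttaccgttgttttctTGAATCActcacaa

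These windows lie, on GRCh38, at chr20:41402940-41402969 on the minus strand for CHD6, chr3:184368470-184368499 on the plus strand for POLR2H and chr15:44415306-44415335 on the plus strand for CASC4. Those of RPS6KB1, COMMD2 and FAM96B are chr17:59947432-59947461 (plus), chr3:149741481-149741510 (minus) and chr16:66932112-66932141 (minus). The SETD7 window spans an exon junction on the minus strand, with 28 bases at chr4:139523354-139523381 and 2 bases at chr4:139520393-139520394. The longest runs shared with the SETD7 coding site were 12 bases in CHD6 and 11 bases in POLR2H. A 3′ UTR run of at least 12 bases around these words occurred in 24 of the 12934 genes (0.186%), and one of at least 11 bases in 79 genes (0.611%). In CASC4, RPS6KB1 and TMEM64 the longest 3′ UTR run was 8 bases and in COMMD2 and FAM96B 7 bases, where 7.61% of genes had at least 8 and 17.1% at least 7. The match is a description of letters: pairing with the hairpin was not tested, its sequence being unknown here.

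Several of the genes held more than 1 site. CASC4, COMMD2 and RPS6KB1 had 3 sites each in the 3′ UTR, where 3.62% of genes had 2 or more, and the remaining 4 genes had 1 each. In COMMD2 the first site began 27 bases after the stop codon. Long 3′ UTRs hold such words more often: 42.8% of genes with a 3′ UTR of at least 3 kb had one, and 2.31% of genes with one under 500 bases. The 3′ UTRs of TMEM64, RPS6KB1 and COMMD2 measured 3676, 3633 and 3051 bases, those of CHD6 and CASC4 2492 and 2352 bases, against a median of 1282.5 bases. FAM96B and POLR2H carried their word in 3′ UTRs of 148 and 300 bases. Whether the words played a part in choosing the genes is not recorded, so their presence is a shared feature and no independent evidence.

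SETD7, the targeted gene, was the reference for depth and evenness. Its level was 180.5, 178.3 and 176.1 CPM (reads of the gene scaled to a common library size, with TMM factors) in NTC and 27.8, 43.8 and 26.7 CPM in Set7KD. The groups were far apart, and Set7KD replicate 2 stood above the other 2. The log2 fold change was -2.44 with a standard error of 0.21, and edgeR's quasi-likelihood test gave an adjusted p of 0.000927. Left in the 3 Set7KD libraries were 15.6, 24.6 and 15% of the NTC mean. The gap between the groups, taken as log2 of the lowest NTC over the highest Set7KD value, was 2.01 and ranked 1 among 13122 tested genes with an NTC mean of at least 5 CPM.

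**Figure D1:**
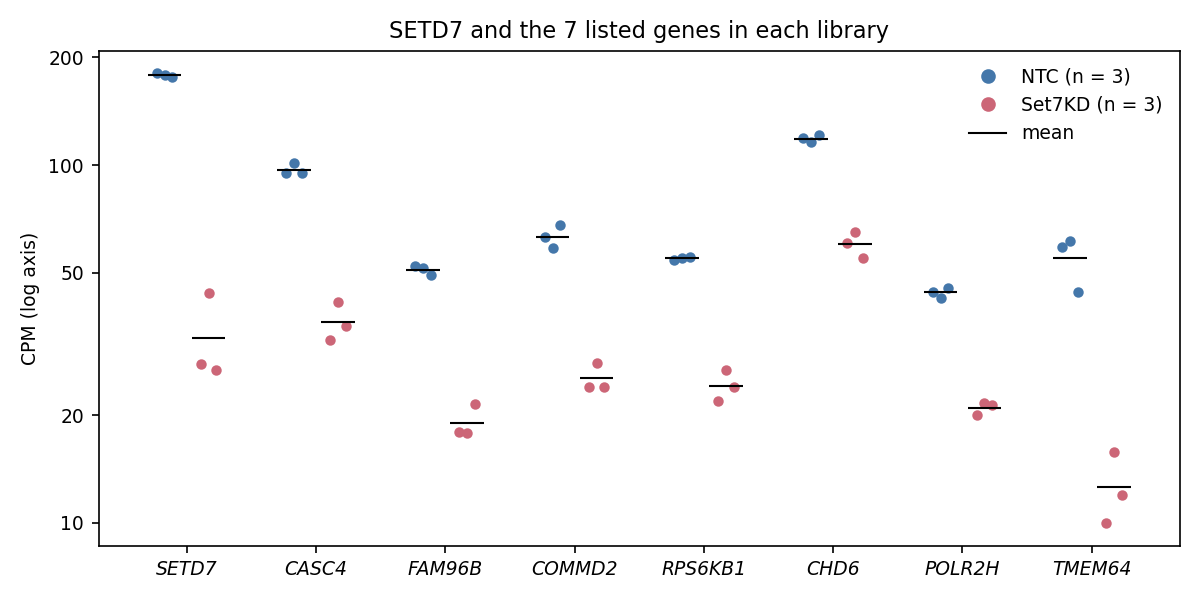
CPM on a log axis of SETD7 and the 7 listed genes in each of the 3 NTC and 3 Set7KD libraries, with the group means as lines. For each gene the lowest NTC library lies above the highest Set7KD library, by the largest margin for SETD7 and the smallest for CHD6.

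TMEM64, a membrane protein of the endoplasmic reticulum from the DedA-related family, was the most reduced of the 7. It measured 59.2, 61.4 and 44.3 CPM in NTC and 9.98, 15.8 and 12 CPM in Set7KD. Its log2 fold change was -2.13 (SE 0.20), a 4.37-fold lower level, and 18.2, 28.7 and 21.8% of the NTC mean was left in the 3 Set7KD libraries. This range overlapped that of SETD7, and of the 7 genes it was the only one to do so. TMEM64 was also the least even in both groups: NTC replicate 3 lay well below the other NTC libraries.

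CASC4, a Golgi membrane protein related to GOLM1, and FAM96B followed with nearly equal differences. The values of CASC4 were 94.7, 101.5 and 95.1 CPM in NTC and 32.4, 41.5 and 35.5 CPM in Set7KD. The groups did not overlap, and Set7KD replicate 2 was again the highest of its group. The log2 fold change was -1.41 (SE 0.08), with 33.3, 42.7 and 36.6% of the NTC mean left. FAM96B, also called CIAO2B, is a subunit of the complex that hands iron-sulfur clusters to cytosolic and nuclear enzymes. It measured 52.2, 51.5 and 49.2 CPM in NTC and 17.9, 17.9 and 21.4 CPM in Set7KD, a log2 fold change of -1.42 (SE 0.08). Here Set7KD replicate 3 was the highest, with 42.1% of the NTC mean left against 35.1 and 35% in the other 2.

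COMMD2 belongs to the COMMD proteins, which act in the recycling of membrane proteins from endosomes. It measured 62.8, 58.5 and 67.8 CPM in NTC and 24, 28.1 and 23.9 CPM in Set7KD, a log2 fold change of -1.31 (SE 0.08). RPS6KB1, the S6 kinase that mTORC1 activates to promote protein synthesis and cell growth, measured 54.4, 55.1 and 55.4 CPM in NTC and 21.8, 26.7 and 23.9 CPM in Set7KD. Its NTC libraries were the closest together of the 7 genes, and its log2 fold change was -1.19 (SE 0.08). In both genes Set7KD replicate 2 was the highest of its group, with 44.5% of the NTC mean left for COMMD2 and 48.6% for RPS6KB1.

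POLR2H, a subunit shared by RNA polymerases I, II and III, had the lowest SD over the 3 Set7KD libraries. It measured 44.3, 42.6 and 45.2 CPM in NTC and 20, 21.6 and 21.3 CPM in Set7KD, with 45.5, 49.1 and 48.4% of the NTC mean left and a log2 fold change of -1.07 (SE 0.07). CHD6, an ATP-dependent chromatin remodeler, was the least reduced: 118.8, 115.8 and 121.2 CPM in NTC and 60.6, 65 and 55 CPM in Set7KD. Its log2 fold change was -0.98 (SE 0.06). For both genes about as much RNA was left as was lost, and no library of one group reached the other. In bulk RNA, fewer cells that express a gene and less RNA per cell cannot be told apart.

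**Figure D2:**
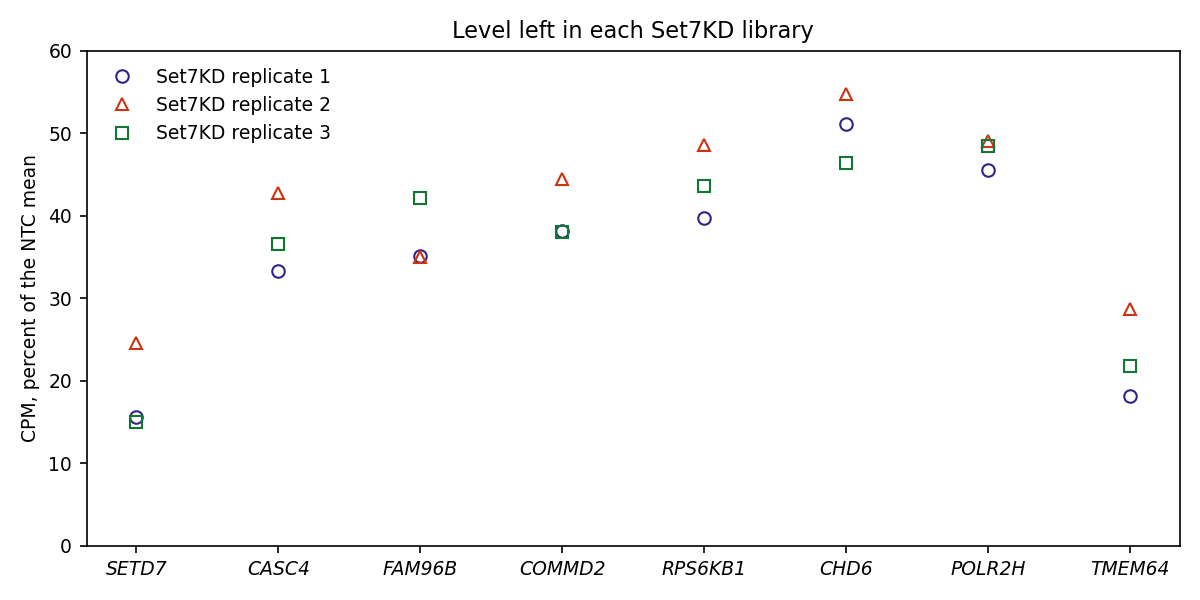
CPM in each Set7KD library as a percent of the NTC mean of the same gene, for SETD7 and the 7 listed genes; each marker shape is a Set7KD replicate. SETD7 and TMEM64 keep 15 to 28.7%, the other 6 genes 33.3 to 54.8%, and replicate 2 is the highest for all genes shown except FAM96B.

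Set side by side, the 7 genes were less reduced than SETD7. Over all 3 Set7KD libraries they were also more even on the log2 scale, but this rested on Set7KD replicate 2. The level left was 22.9 to 50.7% of the NTC mean, against 18.4% for SETD7. The SD of log2 CPM within Set7KD ran from 0.06 for POLR2H to 0.33 for TMEM64, with a median of 0.14, against 0.40 for SETD7. Without Set7KD replicate 2 the SD of SETD7 was 0.04, and 1 of the 7, COMMD2 at 0.003, was more even, while the others ran from 0.064 for POLR2H to 0.19 for TMEM64. Without replicate 1 or 3 the number more even than SETD7 was 7 and 6. These SDs take no account of pairs of equal replicate number, at which the data hint. For such pairs 1, 2 and 3 the log2 ratio was -2.7, -2.03 and -2.72 for SETD7. It was -2.57, -1.96 and -1.88 for TMEM64, about as wide a range, and the other 6 had narrower ranges. Without pair 2, COMMD2 (-1.39 and -1.5) was less even than SETD7. As a percent of the NTC mean, the range across the Set7KD libraries was 9.6 points for SETD7, 10.5 for TMEM64 and 3.65 to 9.38 for the other 6. Within NTC the order was the other way for 6 of the 7, with SDs up to 0.26 for TMEM64 against 0.02 for SETD7. Counting alone gives an SD of 0.05 to 0.10 in Set7KD, and POLR2H was within it, while the other 6 exceeded it. Set7KD replicate 2, in which most SETD7 was left, was also the highest Set7KD library for 6 of the 7 genes. Among 2838 genes called lower with an NTC mean of at least 5 CPM it was the highest for 46.6%.

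The groups did not overlap for 7 of 7, as the choice of the genes implies. Among the 13122 genes with an NTC mean of at least 5 CPM, 3500 (26.7%) were lower in Set7KD without overlap. A gap of at least 1, meaning that the lowest NTC value is at least 2 times the highest Set7KD value, was reached by 39 genes (0.297%), 5 of them on the list. The 7 genes ranked 6 (TMEM64), 19 (FAM96B), 21 (CASC4), 31 (COMMD2), 36 (RPS6KB1), 44 (POLR2H) and 88 (CHD6). The list is a selection with no stated threshold: 80 other genes besides SETD7 had a larger gap than CHD6. Of the 160 genes with a log2 fold change of at most -1 (1.22% of the 13122), 6 are on the list. The median SD of the 160 in Set7KD was 0.24, and 5 of these 6 were more even than that median. TMEM64, at rank 106 of the 160, was not. The choice of the genes for an even fall favours such a result. The 160 also take in genes from 5 CPM in NTC up, where counting error is larger, against 44.0 to 118.6 CPM for the 7. Over all 13122 genes the median SD in Set7KD was 0.085. Of the 7 only POLR2H, at 0.059, was more even than that. The other 6 were less even and ran from 0.121 for CHD6 to 0.331 for TMEM64.

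**Figure D3:**
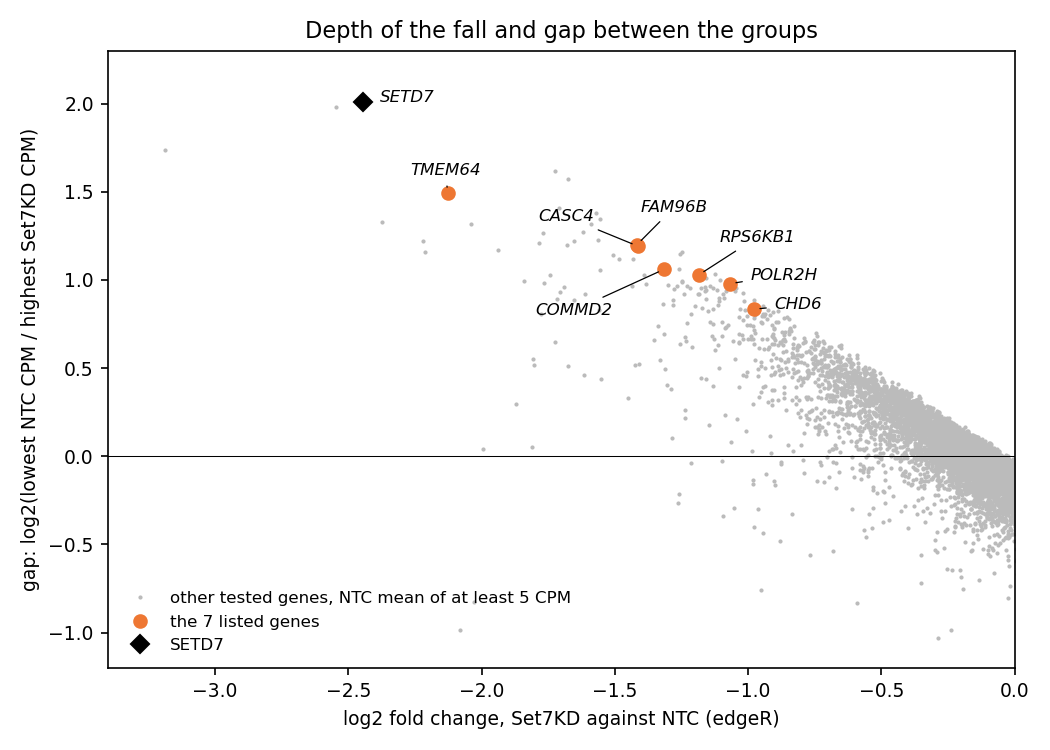
Gap between the groups (log2 of lowest NTC over highest Set7KD CPM) against the edgeR log2 fold change for tested genes with an NTC mean of at least 5 CPM; only genes with a negative fold change are in view. SETD7 lies at the top with a gap of 2.01, TMEM64 at 1.49, and the other 6 listed genes between 0.83 and 1.20 along the upper edge of the cloud.

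Genes outside the list had gaps as wide, and some shared the words. Among the 15 genes with the largest gap, 11 had an annotated protein-coding transcript and 5 of these held a word in the 3′ UTR: SETD7, TMEM64, PPP1CA, EXOSC5 and SPINT2. PPP1CA, a catalytic subunit of protein phosphatase 1, went from 145.5 ± 5.58 to 44.0 ± 1.91 CPM (mean ± SD, n = 3 each). EXOSC5, a subunit of the RNA exosome, had a log2 fold change of -1.57 from 14.9 ± 0.97 CPM in NTC. GALNTL2, ranked 2 by gap at 10.2 ± 1.65 and 1.74 ± 0.33 CPM, held no word in its annotated 3′ UTR. By Euclidean distance of log2 CPM relative to the NTC mean over the 6 libraries, the 5 genes nearest to SETD7 were GALNTL2 (0.42), IL1B (0.62), BDKRB2 (0.68), TMEM64 (0.72) and TMEM40 (0.76). Among the 5 nearest to the median profile of the listed genes were OBSL1 (0.21), MBP (0.22), C5orf4 (0.22) and CHRNB1 (0.23), and of these 4 MBP alone held a word.

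Across all genes the words went with small differences. The median log2 fold change was -0.14 for 482 genes with both words overlapping in the 3′ UTR, -0.059 for 1733 genes with a word but not the overlap, and -0.004 for 10719 genes with neither. A word was present in 31.2% of 138 genes with a log2 fold change of at most -1 and in 29.5% of 740 genes between -1 and -0.5, against 16.4% of 9612 genes within 0.5 of 0 (NTC mean of at least 5 CPM throughout). Of 71 genes with a log2 fold change of at least 1, 15.5% had a word. The words were picked on this same contrast, so these shares are no test of them, and 43 of the 1909 genes with a word reached a log2 fold change of -1 or less.

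**Figure D4:**
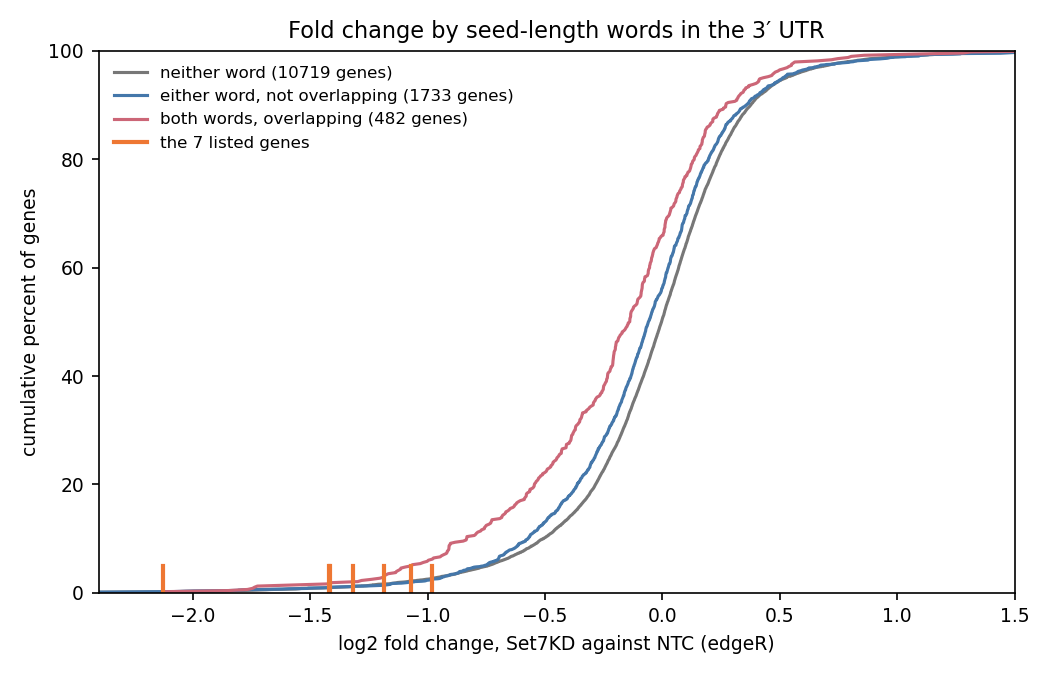
Cumulative percent of genes by edgeR log2 fold change for genes with neither word (10719), a word without the overlap (1733) or both words overlapping (482) in the 3′ UTR; ticks mark the 7 listed genes. The curve of genes with both words lies to the left, with a median of -0.14, and the ticks lie far below that median.

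Reads of CASC4 may be shared with other rows. CASC4P1, a processed pseudogene on chromosome 13, matched the CASC4 coding sequence over 1310 aligned bases at 94.4% identity, and it measured 12.7, 13.1 and 12.6 CPM in NTC and 3.57, 4.94 and 4.53 CPM in Set7KD. RP11-516C1.1, annotated as antisense to CASC4 and overlapping it, went from 14.6 ± 0.9 to 4.74 ± 0.82 CPM (SD, n = 3). Both log2 fold changes, -1.56 and -1.62, were close to that of CASC4 at -1.41. Use of strand in the counting was not stated in the labels, so the 3 rows cannot be taken as separate signals and the CASC4 level is uncertain to that extent. NECAB1, on the opposite strand and overlapping TMEM64, rose from 7.91 to 12 CPM (log2 fold change 0.61, edgeR adjusted p = 0.00049). RP11-178C3.1, a coding annotation on the same strand that overlaps RPS6KB1, had a log2 fold change of -0.86 (edgeR adjusted p = 0.0283) at 1.08 CPM in NTC. That call was lost with DESeq2 (0.175) and without any single library other than NTC replicate 3 (0.053 to 0.0843). A blastn search found no other tested row alike to the coding sequence of FAM96B, COMMD2, POLR2H or TMEM64 over at least 150 bases. For CHD6 and RPS6KB1 the closest rows were their paralogs, at 71.7 and 71.9% identity or less.

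The tested genes nearest to the 7 on the chromosome moved both ways, and 1 of them by more than 1 on the log2 scale. Not all of them lie close: SRSF6 is 1839434 bases from CHD6, and DECR1 569903 bases from TMEM64. Of the 14 nearest tested genes, 1 on each side, 4 were called lower and 3 higher by edgeR at an adjusted p under 0.05, which is 50% where 36.2% of all 18482 genes tested were called. RRAD, a small GTPase gene beside FAM96B, had the lowest log2 fold change of them at -1.32 (adjusted p = 1.16e-05), and no other reached -1. FAM96B, POLR2H and RPS6KB1 each start close to a gene on the other strand, at annotated distances of 21, 67 and 101 bases. For these 3 genes the differences were small: CES2 beside FAM96B had a log2 fold change of -0.34 (edgeR adjusted p = 0.000947), CLCN2 beside POLR2H -0.21 (0.334) and TUBD1 beside RPS6KB1 0.015 (0.927).

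Paralogs, the genes most alike in sequence or family to the 7, were counted next. Of 18 paralogs tested, 4 were called higher and 2 lower (33.3% called, against 36.2% of all genes), with a median log2 fold change of 0.092 against -0.009 over all genes. COMMD genes made up 9 of the 18, so the count and the median lean on that family. RPS6KA3, which blastn matched to RPS6KB1 at 64.8% identity over 603 bases, was not on this list. Its log2 fold change was -0.37 (edgeR adjusted p = 0.000118). RPS6KB2, the second S6 kinase, fell from 35.2 ± 1.23 to 24.4 ± 0.75 CPM (edgeR adjusted p = 4.62e-05) and holds a word in its 3′ UTR. COMMD10 fell from 22.0 ± 1.84 to 15.8 ± 0.59 CPM (edgeR adjusted p = 0.000816). GOLM1, the paralog of CASC4, rose from 194.5 ± 9.78 to 229.6 ± 11.8 CPM, and FAM96A, the paralog of FAM96B, from 30.2 ± 1.92 to 36.5 ± 2.86 CPM. The edgeR adjusted p of GOLM1 and FAM96A were 0.00393 and 0.0133, and FAM96A lost its call without NTC replicate 3 (0.0553). The closest relatives of CHD6 did not pass: CHD7, CHD8 and CHD9 had log2 fold changes of 0.07, 0.065 and 0.10. Those of TMEM41A and VMP1, of the family of TMEM64, were 0.084 and 0.10, and neither passed.

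Golgi genes related to CASC4 moved both ways. Of 20 golgins and Golgi matrix or membrane proteins, 8 rose and 5 fell (65% called, against 36.2% of all genes), with a median log2 fold change of 0.016. TGOLN2, a protein of the trans-Golgi network, fell from 476.0 ± 4.18 to 315.7 ± 1.56 CPM, and GOLPH3L from 49.3 ± 1.6 to 35.5 ± 2.24 CPM. GOLIM4 and BLZF1 rose, with log2 fold changes of 0.60 and 0.41. The 4 edgeR adjusted p lay between 4.1e-07 and 0.0007.

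Of 14 genes that act in iron-sulfur assembly with FAM96B, 4 rose and 2 fell (42.9% called, against 36.2% of all genes), with a median log2 fold change of -0.053, while CIAO1 and MMS19, which form a complex with FAM96B, had log2 fold changes of -0.056 and 0.072 and did not pass. CIAPIN1, an electron carrier of the pathway, rose from 39.6 ± 1.31 to 56.1 ± 1.74 CPM (edgeR adjusted p = 2.19e-05), and the glutaredoxin gene GLRX3 from 36.9 ± 1.33 to 50.6 ± 0.86 CPM (edgeR adjusted p = 5.51e-05). With DESeq2 3 of the genes were called, each of them higher, so the calls of lower genes were lost. Without NTC replicate 3 the number was also 3, with 2 higher and 1 lower. Of 23 genes of the COMMD, CCC, retromer and WASH complexes, 5 rose and 3 fell (34.8% called, against 36.2% of all genes), with a median of -0.006. VPS26B, a retromer subunit, had the smallest p of them and rose from 78.2 ± 4.21 to 99.8 ± 3.58 CPM (edgeR adjusted p = 0.000251). DESeq2 called 3 of these genes. Without NTC replicate 1 the number was 2, without NTC replicate 2 it was 3, and without Set7KD replicate 1 or 2 it was 4. Without Set7KD replicate 3 it was 5.

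Of 26 genes around mTORC1 and the S6 kinases, 1 rose and 5 fell (23.1% called, against 36.2% of all genes), with a median of 0.011, and MTOR itself measured 210.0 ± 8.67 and 214.7 ± 2.73 CPM. TSC1, an inhibitor of mTORC1, fell from 95.2 ± 0.48 to 65.7 ± 2.53 CPM, and EIF4B, a translation factor and S6 kinase substrate, from 179.3 ± 2.62 to 125.5 ± 11.5 CPM. ULK1, a kinase that starts autophagy, fell with a log2 fold change of -0.50. The edgeR adjusted p of these 3 genes were 3.43e-06, 1.59e-05 and 9.89e-05. EIF4E, the cap-binding protein, was the gene that rose, at 0.36 (edgeR adjusted p = 0.00512). Of the other 9 CHD genes tested, counting CHD1L, 1 passed (11.1%, against 36.2% of all genes): CHD2 fell from 276.1 ± 4.86 to 232.0 ± 14.7 CPM (edgeR adjusted p = 0.00236).

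Among the remaining RNA polymerase subunits more rose than fell. Of 30 subunits of polymerases I, II and III, 15 rose and 1 fell (53.3% called, against 36.2% of all genes, of which 17.6% were higher), with a median log2 fold change of 0.19 against -0.009 over all genes. POLR1A and POLR1B, the large subunits of polymerase I, rose from 132.4 ± 7.19 to 169.6 ± 8.36 CPM and from 47.4 ± 2.29 to 65.7 ± 2.42 CPM. POLR1A holds a word in its 3′ UTR. POLR1E and TWISTNB, further polymerase I subunits, rose with log2 fold changes of 0.48 and 0.35. The edgeR adjusted p of these 4 genes lay between 3.63e-05 and 0.000532. POLR1D, shared by polymerases I and III, was the 1 that fell, at -0.22 (edgeR adjusted p = 0.00769), and it lost its call without Set7KD replicate 1 (0.0508). Of 11 genes of the DedA family and of calcium pumping around TMEM64, 3 rose and 2 fell (45.5% called, against 36.2% of all genes), with a median of 0.10. ATP2A2, the calcium pump to which TMEM64 has been linked, measured 525.6 ± 14.5 and 566.8 ± 10.6 CPM and did not pass (edgeR adjusted p = 0.106), but passed with the replicate block (0.0352). CALM2, CALM3 and CTNNB1 rose, with log2 fold changes of 0.25, 0.31 and 0.31. The edgeR adjusted p of these 3 genes lay between 0.000277 and 0.00137.

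**Figure D5:**
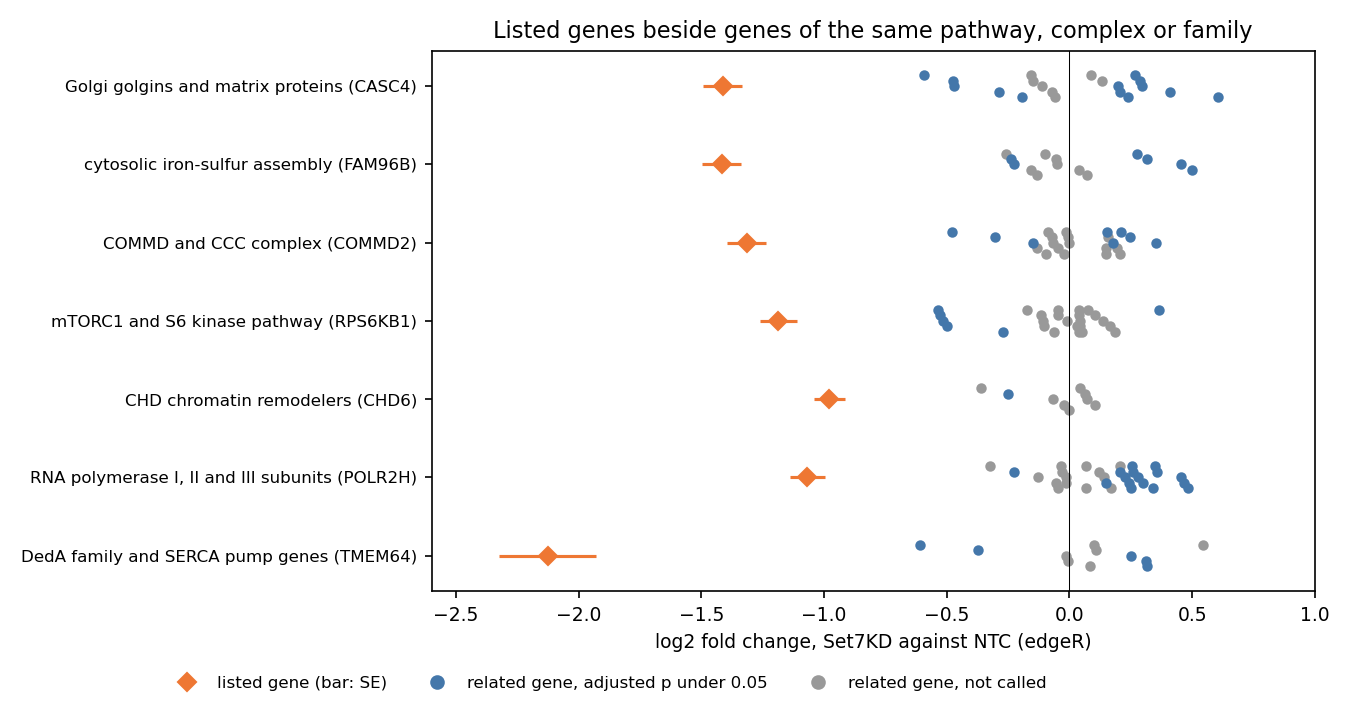
edgeR log2 fold change of each listed gene (diamond, bar for its SE) beside the genes of the pathway, complex or family named on the left (points, coloured by whether the adjusted p is under 0.05). The diamonds lie between -0.98 and -2.13, and the lowest related gene shown, ATP2A1, lies at -0.61.

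Genes of the RNA interference machinery, parts of which hairpins use, were also counted. Of 13 tested 2 rose and 3 fell (38.5% called, against 36.2% of all genes), with a median log2 fold change of 0.026. TNRC6B, a partner of Argonaute in silencing, measured 92.2, 93.3 and 96 CPM in NTC and 52.1, 52.3 and 45.6 CPM in Set7KD. It fell by 0.91 on the log2 scale (edgeR adjusted p = 1.28e-07) and holds a word at 4 sites in its 3′ UTR. DICER1, the enzyme that cuts hairpins to their final length, rose from 95.4 ± 10.3 to 150.9 ± 9.44 CPM (edgeR adjusted p = 1.59e-05) and holds a word as well. TNRC6A, EIF2C1, EIF2C2, EIF2C3, DGCR8 and DROSHA hold a word too, with log2 fold changes from -0.193 to 0.105. EIF2C4, which encodes Argonaute 4, fell by 0.38, and XPO5, which exports hairpins from the nucleus, rose by 0.21. Their edgeR adjusted p were 0.000373 and 0.00409.

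Over the series, the gene counts per library ran from 16385878 to 16953331, so 1 count was worth 0.0585 to 0.0618 CPM, and 36.2% of 18482 genes were called. Of 12 endothelial markers 10 were analysed and each had a mean above 1 CPM, with a summed level of 613.8 to 765.6 CPM in NTC and 566.3 to 601 CPM in Set7KD; PECAM1 and CLDN5 were not analysed here. Of the 10, 3 fell (CDH5, TIE1 and ROBO4), with log2 fold changes of -0.80, -0.72 and -0.66. A further 3 rose (TEK, ENG and KDR), with 0.385, 0.30 and 0.68. Summed fibroblast markers (6 of 8 analysed) ran from 1493 to 2054 CPM in NTC and from 3173 to 4106 CPM in Set7KD. Most of this sum was COL1A1 (mean from 1555 to 2861 CPM) and COL1A2 (from 149.3 to 732.6 CPM). These and COL3A1 and PDGFRA were called higher, while LUM and THY1 were not called. Summed smooth muscle and pericyte markers (7 of 8) ran from 319.2 to 361.3 CPM in NTC and from 671 to 930.4 CPM in Set7KD. Of these 7, TAGLN (from 96.3 to 551.1 CPM) and CNN1 rose, and the other 5, ACTA2 and PDGFRB among them, were not called. Leukocyte markers (2 of 6, PTPRC not analysed here) summed to 36.1 to 38.6 CPM in NTC and 21.5 to 28.2 CPM in Set7KD, and epithelial markers (3 of 6) to 219.2 to 262.2 and 228.1 to 249 CPM. Their part in the values of the 7 genes was not tested.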

How the data were processed

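Read counts per gene, whole numbers without normalization, were deposited by the authors as 1 table of 6 libraries. BWA and bedtools on hg19 are named, per the submitters' processing notes, without versions or a counting rule. The row for reads outside genes (55.6 to 56.1% of each library) was left out. The deposited counts went into edgeR 4.0.16 under R 4.3.3, with TMM scaling, the filterByExpr filter, robust glmQLFit and glmQLFTest, and Benjamini-Hochberg adjustment over 18482 genes; calls have an adjusted p under 0.05. The fit was tested on simulated counts that had the same dispersion for all genes and no pairs of libraries. It was thus not tested for uneven dispersion or pairing. The alternatives were relative log expression scaling, no filter, a replicate block, DESeq2 1.42.0 and leaving out each library. Leaving out libraries from the evenness comparison was added after seeing the data. Deviations from group means over 11151 genes correlated at 0.302, 0.419 and 0.34 between libraries of the same number, above the rule of 0.1, so the data hint at pairs of equal number; reported values come from the fit without the block, and the fit with it was an alternative. Replicates differed by more than counting noise.

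The 7 genes, the words and the gene lists were chosen with earlier results of these data known. Named are SETD7, the 7 genes, paralogs, up to 4 genes of smallest p per list, the 15 largest gaps and the 5 nearest profiles. Further partners (CIAO1, MMS19, MTOR, ATP2A1, ATP2A2, EIF4E, POLR1D), further RNA interference genes, marker genes, copies and neighbours were added after their values were seen. A word in the 3′ UTR is mentioned for some of the named genes that hold it, not for all. Some genes that this rule names are not reported here. Transcripts are from GENCODE 29 (GRCh38), matched by Ensembl identifier for 17753 of 18544 rows; copies were sought with blastn 2.17.0.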

Additional observations from a re-analysis of the deposited data

How the results depend on the processing

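Under the 10 alternatives the log2 fold change ran from -1.98 to -2.32 for TMEM64 and from -0.91 to -1.04 for CHD6. For each of the 7 genes it moved by less than the SD between replicates. Leaving out a single library can hardly move it by more than that SD, so those settings are no test of stability. The gap of a gene moved by more than that SD in 8 of 56 cases, in each of which a single library was left out. By its definition the gap can then only stay or widen. It stays unless that library held the lowest NTC or the highest Set7KD value. For TMEM64 the gap reached 1.91 without NTC replicate 3. SETD7 stayed called throughout, with a log2 fold change of -2.31 to -2.71 when a library was left out. The number of the 7 genes more even than SETD7 within Set7KD, 7 with all libraries, ran from 1 to 7 with a library left out, and was 1 without Set7KD replicate 2. The number of genes called was 6690, and it was 7916 with the replicate block, 5400 with DESeq2 and 4987 to 6444 with a library left out. CDH5, TIE1, ROBO4, ACTA2, PDGFRB and the fibroblast markers were not checked under the alternatives. Neither were TNRC6A, EIF2C1, EIF2C2, EIF2C3, DGCR8 and DROSHA as single genes. Of the other calls named here the replicate block changed that of ATP2A2 alone (adjusted p = 0.0352 in edgeR), and it moved no list count by over 1.5 times. FAM96A, POLR1D and RP11-178C3.1 lost their calls as given above. With DESeq2 the iron-sulfur list had 3 called genes and the COMMD list 3; with a library left out the first had 3 to 7 and the second 2 to 6. The cause was not tested. TUBD1, at 0.015, ran from -0.081 without Set7KD replicate 2 to 0.083 without Set7KD replicate 1. At this depth a listed gene has 165 to 2072 counts per library, which limits its precision to the counting errors given.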
